A study of Mus musculus with 18 samples.

Results

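The transcriptional response to palmitic acid (PA) was examined in C2C12 myotubes in which Erk3 had been silenced, by setting the 3 siErk3_Palmitic libraries against the 3 siErk3_BSA libraries of a series of 18. Both groups were transfected with the same SMARTpool siRNA reagent against Erk3 at confluence and differentiated for 6 days. Then, for 16 h and without serum, one group received 0.5 mM palmitic acid bound to BSA and the other BSA as vehicle. The 3 siNTC_BSA and 3 siNTC_Palmitic libraries, transfected with non-targeting siRNA and treated alike, gave the reference response, which shares no library with the siErk3 response. Of 55414 genes in the count table, 21772 whose counts over all 18 libraries sum to at least 10 were tested. C2C12 is an established line of mouse myoblasts, so the libraries carry no variation between animals, and nothing states that libraries of the same group came from different cultures. The p-values therefore measure the spread between these libraries, which may be technical. Silencing was transient and partial, and genes other than Erk3 that the siRNA pool may reach were not measured separately.

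Palmitate is a saturated long-chain fatty acid that muscle cells oxidize, store as triglyceride in lipid droplets or build into membrane lipids and ceramides. An excess of saturated acyl chains in the membrane of the endoplasmic reticulum (ER) activates its stress sensors. Perk then phosphorylates eIF2α and raises translation of the transcription factor Atf4, while Ire1 and Atf6 raise chaperones. Fatty acids are also ligands of the PPAR receptors, which induce genes of fat storage and oxidation. Erk3, encoded by Mapk6, is an atypical MAP kinase that is rapidly degraded and that binds and activates the kinase Mk5, encoded by Mapkapk5.

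The siErk3 libraries held 20737548 to 28496727 counted read pairs and the siNTC libraries 13041979 to 23615343. Rn18s-rs5, an 18S ribosomal RNA gene, took 1.5% to 2.96% of the counts in siErk3_BSA and 3.74% to 6.77% in siErk3_Palmitic, without overlap, against 2.56% to 7.17% in siNTC_BSA and 5.32% to 6.43% in siNTC_Palmitic. Myotube markers were abundant, and their sum was lower with palmitate, although only 1 of 10 passed as lower in siErk3 and 9 did not pass. Their summed level over 10 genes was 17106 to 19185 CPM in siErk3_BSA and 15562 to 16910 CPM in siErk3_Palmitic (CPM, read pairs scaled to library size, normalized by edgeR's TMM method). The median level over the 10 overlapped, at 1534, 1496 and 1660 CPM in siErk3_BSA and 1756, 1595 and 1590 CPM in siErk3_Palmitic. Of 8 adipocyte markers only 2 passed the filter on counts, Pparg rose, and Plin1, Cidec and Cfd had 0 counts in the 12 libraries. Of 8 macrophage markers 6 passed, with a summed level of 7.80 to 9.21 CPM in siErk3_BSA and 8.06 to 8.94 CPM in siErk3_Palmitic, Csf1r fell, and Adgre1 had 0 counts. Fibroblast markers were at 9723.5 to 9989 CPM in siErk3_BSA and 2770 to 4430 CPM in siErk3_Palmitic, with 5 of 7 lower, while Tcf21 had 0 counts. They include collagens that C2C12 cells are known to make, and their part in the results was not tested.

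Mapk6 (ENSMUSG00000042688), on chromosome 9 from 75276344 to 75317287 of GRCm39, rose with palmitate although it was the silenced gene. Its level was 56.6, 60.3 and 55.2 CPM in the siErk3_BSA libraries and 131, 119 and 109 CPM in the siErk3_Palmitic libraries. In siNTC it was 135, 129 and 133 CPM in BSA and 215, 236 and 244 CPM with palmitate. Thus the Mapk6 level of the silenced cells under palmitate overlapped that of non-silenced cells in BSA. The log2 fold change with palmitate was 1.06 in siErk3 (SE 0.06, edgeR FDR = 9.40e-16) and 0.81 in siNTC (SE 0.06, edgeR FDR = 2.11e-13). All libraries with palmitate lay above those in BSA in each silencing (two-sided exact permutation test, p = 0.1, the smallest that 3 against 3 allow). The 2 responses differed by 0.25 on the log2 scale (95% interval 0.09 to 0.42), which did not pass (edgeR FDR = 0.524). Mapkapk5 was at 2.15, 1.98 and 2.18 CPM in siErk3_BSA and 3.24, 2.57 and 3.52 CPM in siErk3_Palmitic, a log2 fold change of 0.54 (edgeR FDR = 0.0112), from 47 to 74 counts per library. In siNTC its value was 0.40 and did not pass (edgeR FDR = 0.0764).

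**Figure D1:**
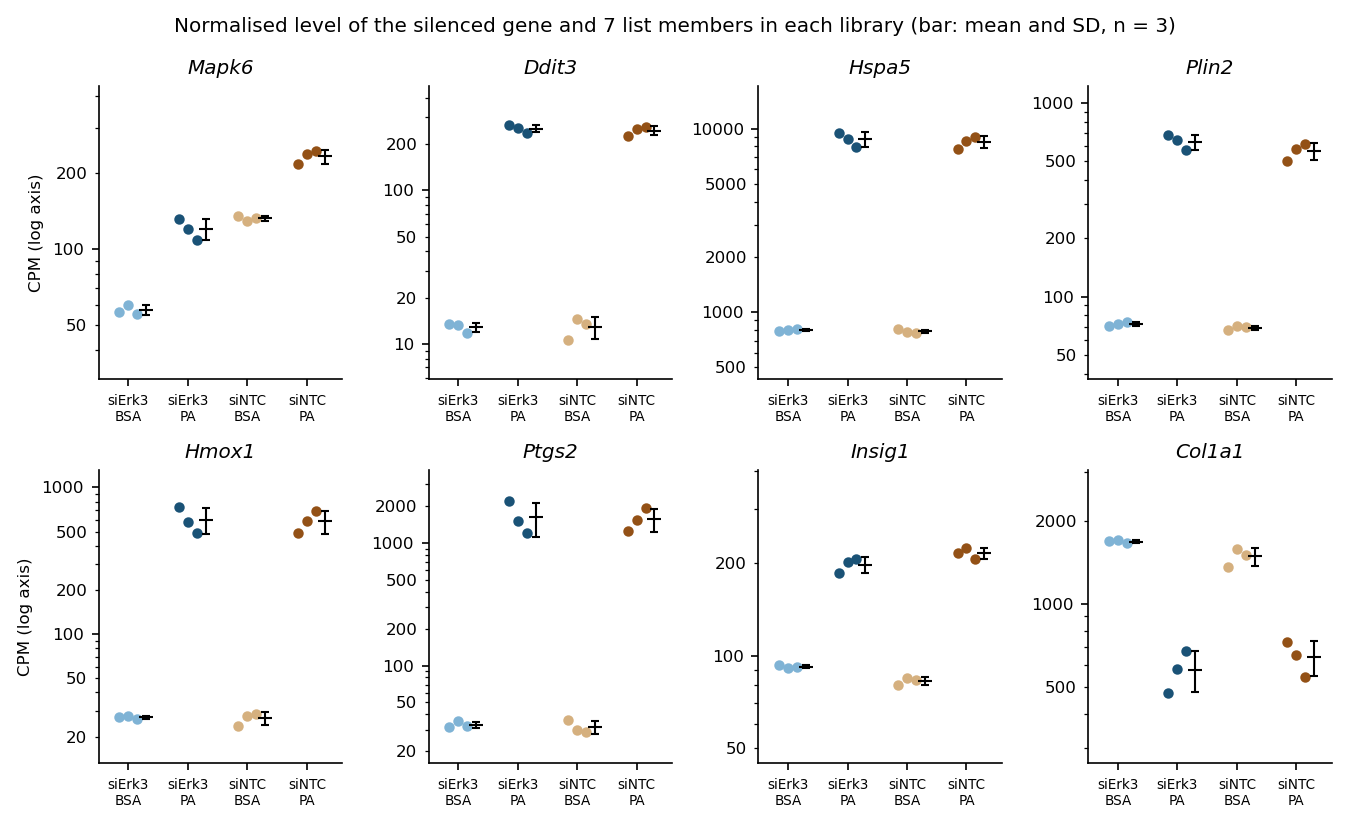
Level of Mapk6 and 7 genes of the lists in each library, in CPM on a log axis. Points are libraries, and the bar beside them gives the mean and SD of 3. Mapk6 lies between 55.2 and 60.3 CPM in siErk3_BSA and between 109 and 131 CPM in siErk3_Palmitic, and in all 8 panels the palmitate libraries do not overlap the BSA libraries of the same silencing.

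Palmitate changed 6992 genes in Erk3-silenced myotubes, with 3440 higher and 3552 lower at an FDR below 0.05 and beyond 1.3-fold either way (edgeR's quasi-likelihood test with Benjamini-Hochberg adjustment). Of all tested genes these were 15.8% higher and 16.3% lower. Among them 1412 rose and 1360 fell by more than 2-fold. In siNTC 3381 genes (15.5%) were higher and 3280 (15.1%) lower. Changed in the same direction in both were 5534 genes, 79.1% of those changed in siErk3 and 83.1% of those changed in siNTC, and 2864 of them were higher and 2670 lower. Over the 12611 genes with at least 10 counts in every library, the log2 fold changes of the 2 responses correlated at r = 0.97, a description across genes, which are not independent. Only Gm43145, a predicted gene named here after its values were seen, was changed in opposite directions, on 0 to 5 counts per library. The count of calls alone does not separate the responses, since of 1457 genes changed in siErk3 but not in siNTC 1334 had the same sign in siNTC, and for only 2 of them, Apol8 and Ccn1, did the difference pass.

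The palmitate libraries did not respond with equal strength. Over the 2864 genes higher in both responses, the median log2 distance from the BSA mean was 0.79, 0.71 and 0.65 in siErk3_Palmitic libraries 1, 2 and 3 and 0.68, 0.73 and 0.77 in siNTC_Palmitic libraries 1, 2 and 3. Over the 2670 lower genes it was -0.82, -0.72 and -0.64 in siErk3 and -0.60, -0.68 and -0.76 in siNTC. The first siErk3_Palmitic library was thus the strongest of its group in both directions and the first siNTC_Palmitic library the weakest of its own.

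**Figure D2:**
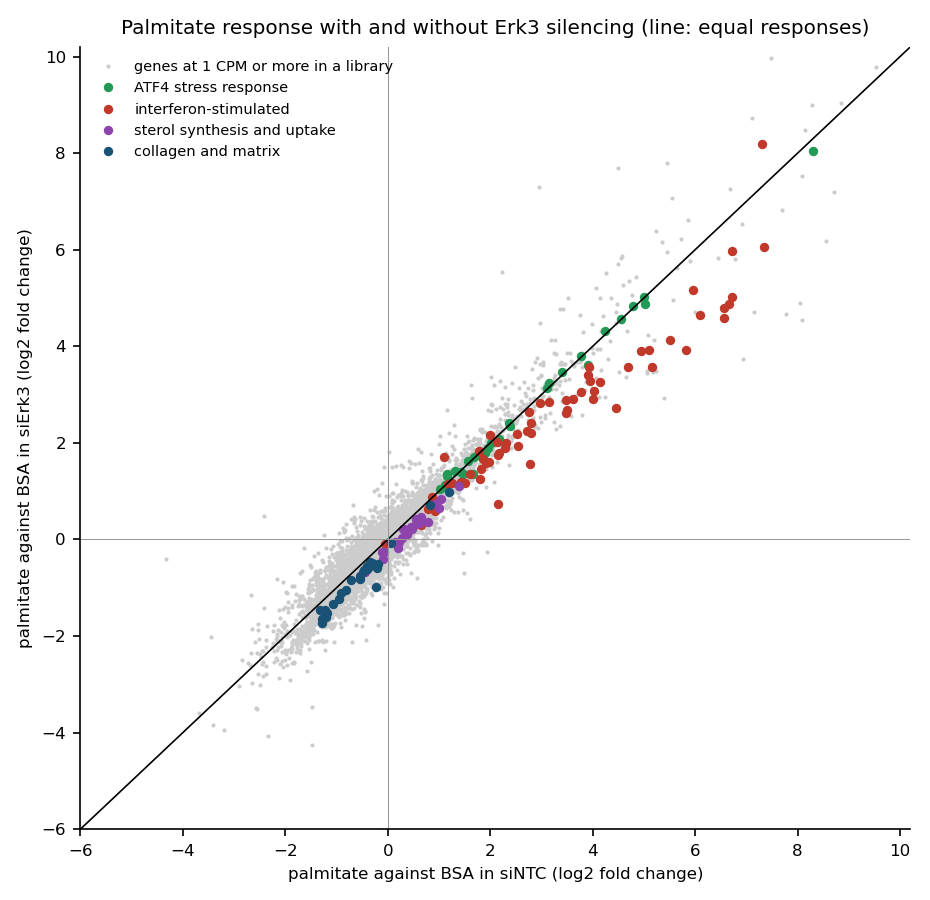
Log2 fold change with palmitate in siErk3 against that in siNTC for genes that reach 1 CPM in a library, with 4 lists in color and the line of equal responses. Genes of the ATF4 list lie along the line, and 56 of 61 interferon-stimulated genes lie below it.

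By FDR, the 10 leading genes that rose in siErk3 without overlap between groups were Tpsab1, Angptl4, Creld2, Trib3, Srxn1, Pdia4, Aldh1l2, Gpr137b, Car6 and Ddit3. Angptl4, a secreted inhibitor of lipoprotein lipase and a PPAR target, went from 22.4, 22.3 and 25.3 CPM to 364, 365 and 350.3 CPM, a log2 fold change of 3.95 (SE 0.05, edgeR FDR = 1.76e-30). Gpr137b, a lysosomal membrane protein, went from 16.6, 19.6 and 18.03 CPM to 189, 192 and 195 CPM (log2 fold change 3.41, SE 0.06, edgeR FDR = 1.89e-28). In both, the palmitate libraries lay far above the BSA libraries and close to each other. Tpsab1, a tryptase known from mast cells, was almost silent in BSA, with 3, 8 and 6 counts in the siErk3_BSA libraries against 4258, 6055 and 4182 counts with palmitate. Car6, a secreted carbonic anhydrase, likewise had 2, 5 and 2 counts against 1401, 1879 and 1282. Both were also scarce in siNTC_BSA, with 2 to 5 counts of each per library, and abundant in siNTC_Palmitic, with 2840 to 3185 counts of Tpsab1 and 1243 to 1302 of Car6. Tpsab1 has a close relative in the same gene cluster, so its counts can hold reads of that relative.

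The 10 leading genes that fell were Rnf145, Tagln, Aspm, Fst, Erfe, Tdrkh, Cmklr1, Actg2, Cenpf and Prc1. Rnf145, a ubiquitin ligase of the ER that acts on sterol synthesis, went from 101, 98.9 and 107 CPM to 39.6, 41.0 and 44.1 CPM, a log2 fold change of -1.3 (SE 0.05, edgeR FDR = 2.03e-19). Tagln and Actg2 encode proteins of the smooth muscle type of actin cytoskeleton, and their log2 fold changes were -1.66 and -1.84 in siErk3 against -1.33 and -1.51 in siNTC. Fst, the secreted antagonist of myostatin and activin, had a log2 fold change of -1.14, and the secreted regulator of iron uptake Erfe one of -1.63. Aspm, Cenpf and Prc1, which act on the mitotic spindle and its division, fell by 1.32, 1.3 and 1.21 on the log2 scale. None of these 20 genes passed the test of the difference between the responses.

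The amino acid and stress genes driven by Atf4 responded as a whole. All 32 members of the ATF4 list rose in siErk3 and all 32 rose in siNTC, beside 15.8% and 15.5% of all tested genes. The median log2 fold changes were 1.95 in siErk3 and 1.99 in siNTC against -0.01 and -0.03 over all tested genes. Atf4 itself had a log2 fold change of 1.62. Ddit3, the pro-apoptotic factor CHOP, went from 13.4, 13.3 and 11.8 CPM to 267, 255 and 238 CPM (log2 fold change 4.31, SE 0.07, edgeR FDR = 2.20e-28). Trib3, a pseudokinase that binds Akt, went from 5.07, 3.75 and 4.54 CPM to 136, 135 and 125 CPM (log2 fold change 4.89, SE 0.08, edgeR FDR = 2.77e-29). Slc7a11, the cystine transporter, showed the largest log2 fold change of the list, 8.05 (SE 0.17), from 1.23, 2.07 and 1.18 CPM to 469, 384 and 325 CPM. The secreted stress hormones moved unequally, with a log2 fold change of 5.02 for Gdf15 and 1.35 for Fgf21. Differences between the responses in this list ran from -0.33 for Stc2 to 0.20 for Fgf21, and the 95% interval of the difference lay within 1.3-fold either way for 23 of 32 members.

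Promoter sequence was looked up for members that moved together, to show what the response elements look like where they stand close to the start. In the 250 bases before the RefSeq start (GRCm38.p6, either strand), the letters TGATGNAA, a core of the composite C/EBP and ATF element bound by Atf4, were found for 8 of the 27 ATF4 list members with a window (29.6%), and for 334 of all 12771 tested genes with one (2.62%). The 3 below have the smallest p-values of the response among those 8, with the match in capitals, reading towards the gene.
Slc7a11 promoter, chr3:50443614-50443863, minus strand: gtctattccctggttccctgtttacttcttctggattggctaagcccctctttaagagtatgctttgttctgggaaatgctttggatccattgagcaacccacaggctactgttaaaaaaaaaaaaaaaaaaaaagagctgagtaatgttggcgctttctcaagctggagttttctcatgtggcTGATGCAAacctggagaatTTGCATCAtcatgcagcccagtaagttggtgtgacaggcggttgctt
Chac1 promoter, chr2:119350992-119351241, plus strand: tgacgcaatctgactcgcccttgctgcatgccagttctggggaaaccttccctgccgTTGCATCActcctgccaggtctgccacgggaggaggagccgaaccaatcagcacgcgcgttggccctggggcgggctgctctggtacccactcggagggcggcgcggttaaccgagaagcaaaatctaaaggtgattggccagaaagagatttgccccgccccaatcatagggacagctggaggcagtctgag
Atf3 promoter, chr1:191183334-191183583, minus strand: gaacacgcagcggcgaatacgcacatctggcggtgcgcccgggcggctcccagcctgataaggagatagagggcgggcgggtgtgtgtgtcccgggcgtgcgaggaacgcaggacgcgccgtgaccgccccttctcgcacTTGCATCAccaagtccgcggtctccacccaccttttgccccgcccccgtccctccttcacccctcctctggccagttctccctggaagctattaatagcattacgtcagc
Slc7a11 holds the letters on both strands, starting 66 and 47 bases before the start, and Chac1 and Atf3 hold them once, on the opposite strand, 193 and 110 bases before it. A match of letters is no evidence that the factor binds there. None of the 3 tRNA synthetase genes with a window held them.

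Among cytosolic tRNA synthetases, which charge tRNAs with amino acids, 16 of 20 rose in siErk3 and the same number in siNTC (median log2 fold changes 1.04 and 1.01). Among all tested genes 15.8% rose in siErk3 and 15.5% in siNTC. Wars1, for tryptophan, rose most, from 54.7, 59.5 and 60.6 CPM to 249.8, 248 and 237 CPM (log2 fold change 2.07, SE 0.05, edgeR FDR = 3.41e-24). Qars1, Kars1 and Hars1, with log2 fold changes of 0.13 to 0.20, were among those that did not pass. All 20 differences between the responses lay between -0.08 and 0.08, with 95% intervals within 1.3-fold either way. No other list had this for all of its members.

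Chaperones and folding enzymes of the ER rose together. All 30 members of the list passed in siErk3 and all 30 in siNTC, with medians of 1.95 and 1.92. The shares of all tested genes that rose were 15.8% in siErk3 and 15.5% in siNTC. Hspa5, the ER chaperone BiP, went from 786, 795 and 809 CPM to 9496, 8821 and 7920 CPM, a log2 fold change of 3.46 (SE 0.06, edgeR FDR = 5.71e-28) that was 3.43 in siNTC. Creld2 and Pdia4, which handle disulfide bonds, had log2 fold changes of 3.44 and 2.97. The sensors had log2 fold changes of 1.51 for Ern1 (Ire1), 1.35 for Atf6 and 0.54 for Eif2ak3 (Perk). Derl3 passed on few reads, with 0 CPM in all siErk3_BSA libraries and 0.0438, 0.434 and 0.298 CPM with palmitate. For the other 29 members the interval of the difference lay within 1.3-fold either way.

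Of the antioxidant genes controlled by Nrf2, 22 of 27 rose in siErk3 and 20 in siNTC, with medians of 1.33 and 1.34. Among all tested genes 15.8% rose in siErk3 and 15.5% in siNTC. Hmox1, which degrades heme, went from 27.4, 27.5 and 26.2 CPM to 729, 578 and 491 CPM (log2 fold change 4.47, SE 0.12, edgeR FDR = 2.83e-23). Srxn1, which restores oxidized peroxiredoxins, went from 19.2, 20.3 and 20.2 CPM to 240.1, 258 and 242 CPM (log2 fold change 3.63, SE 0.06). Its rise was larger than in siNTC by 0.18 (95% interval 0.01 to 0.36), and that of the quinone reductase Nqo1 by 0.31, but neither passed adjustment (edgeR FDR = 0.766 for Srxn1). Gpx1, Gpx4, Sod2, Keap1 and Me1 did not pass in siErk3. Of 15 cytosolic heat shock genes 11 rose in each response (medians 0.69 and 0.71), led by Hspa1b at 1.83 and Hspa1a at 1.43, a near-identical pair whose reads may be split.

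Genes of fat use responded selectively. Among 19 measured members of the list of PPAR targets and fuel-switch genes 9 rose and 1 fell in siErk3, against 10 and 2 in siNTC. Over all tested genes 15.8% rose and 16.3% fell in siErk3, against 15.5% and 15.1% in siNTC. Plin2, the coat protein of lipid droplets, went from 70.8, 71.7 and 74.2 CPM to 678, 639 and 568 CPM (log2 fold change 3.12, SE 0.07, edgeR FDR = 4.04e-26). Slc27a1, a fatty acid transporter, and Pdk4, which holds back pyruvate oxidation, had log2 fold changes of 2.33 and 1.54. The list member that fell, Creb3l1, did so by 0.87 on the log2 scale, and whether PPAR receptors control it was not tested. The list medians were 0.46 in siErk3 and 0.90 in siNTC, and the median difference of the members was 0.03. The siErk3 median was 0.29 without siErk3_BSA library 3 and 0.90 over the members with 10 counts in every library, and the median difference was -0.03 without siNTC_Palmitic library 1. Ucp3, an uncoupling protein of muscle, was under 1 CPM in all libraries, rose in siNTC and did not pass in siErk3 (difference -1.85, edgeR FDR = 0.621).

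Of 28 oxidation genes measured, 4 rose and 1 fell in siErk3, less than the background share for falls and close to it for rises. The 4 were Acot2 (log2 fold change 3.20), Cpt1a (1.05), Acadl (0.74) and Acsl1 (0.51), and Ehhadh, of the peroxisome, fell by 1.47. Cpt1a, which commits acyl chains to the mitochondrion, went from 69.5, 77.0 and 72.9 CPM to 136, 159.7 and 159.7 CPM. The core enzymes Hadha, Hadhb, Acadm and Acadvl had log2 fold changes of -0.22 to -0.37, short of the 1.3-fold limit, and so did not pass. Of all tested genes 15.8% rose and 16.3% fell in siErk3. Among droplet and lipolysis genes 6 of 19 rose and 3 fell, the falls near the share of all genes. Gpat3, which starts triglyceride synthesis, was at 2.33 and the monoglyceride lipase Mgll at -1.10. In the ceramide list 10 of 25 rose and 5 fell, the falls again near that share. Those that rose include Cers2, which makes very long-chain ceramides (log2 fold change 1.20), and Sptlc2, a subunit of the enzyme that condenses palmitoyl-CoA with serine (0.71), while Cers4 and Cers1 fell by 1.59 and 1.18.

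Inflammatory targets of NF-kB rose in part, with 21 of 29 measured members higher in siErk3 and 20 in siNTC (medians 0.76 and 0.88). The shares of all tested genes that rose were 15.8% in siErk3 and 15.5% in siNTC. Ptgs2, the inducible cyclooxygenase, went from 31.6, 35.0 and 32.3 CPM to 2187, 1497 and 1198 CPM, a log2 fold change of 5.62 (SE 0.17, edgeR FDR = 3.16e-22) that was 5.65 in siNTC. Its 3 palmitate libraries lay in the same order as the strength of response given above. The chemokine Ccl2 had a log2 fold change of 3.68, and the cytokine Il6 went from 1.44, 0.843 and 0.894 CPM to 9.90, 9.92 and 9.13 CPM (log2 fold change 3.20). Nfkb1, Rel, Vcam1, Cx3cl1, Tnfaip3, Lif, Birc3 and Icam1 did not pass. Of 26 immediate early genes 19 rose, Egr3 fell, and 6 did not pass. Fosl1, a partner of Jun in AP-1, had a log2 fold change of 3.59 and Dusp4, a phosphatase that switches off MAP kinases, one of 2.75. The median difference between the responses was -0.08 for the NF-kB list and -0.06 for the immediate early list, and both depended on single libraries. Without siErk3_Palmitic library 1 they were -0.16 and -0.22, and without library 3 they were 0.06 and 0.02.

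MAP kinases and their partners moved both ways. Of 24 members, Mapk6 and Mapkapk5 included, 6 rose and 5 fell in siErk3, against 7 and 3 in siNTC, beside 15.8% and 16.3% of all tested genes in siErk3. Map2k1 rose by a log2 fold change of 0.80, while Mapk3, which encodes Erk1, fell by 0.70. Mapk4, the closest relative of Mapk6, fell by 0.46 from a level of 2.61 CPM and had a value of 0.13 in siNTC that did not pass. The difference of -0.59 did not pass adjustment (edgeR FDR = 0.790).

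Contractile genes were lower, some by a modest amount and most not past the threshold. In bulk RNA, fewer cells of a type and less RNA per cell cannot be told apart. Of 42 sarcomere genes 18 fell and 1, Mybpc2, rose in siErk3, with a median of -0.31 (siNTC -0.35). For this list and the next ones, the shares over all tested genes in siErk3 were 16.3% lower and 15.8% higher. Myot, Tpm1 and Myh2 had log2 fold changes of -1.11, -0.82 and -0.72, while skeletal actin Acta1 was at 3412, 3427 and 3713 CPM in BSA and 3357, 3219 and 3204 CPM with palmitate and did not pass. Of 20 measured calcium-handling genes 7 fell, led by the calcium pump Atp2a1 of fast fibers (275, 275 and 312 CPM against 128, 131 and 144 CPM, log2 fold change -1.10), while its isoform Atp2a2 rose by 1.04. Of 24 myogenic genes 11 fell and none rose. They include Myod1 (-0.80), Pax7 (-1.10), Mef2c (-0.59) and Myog (-0.48). Igf2, also among the 11, was below 1 CPM in all 12 libraries.

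Metabolic, signaling and turnover lists moved in part and in both directions, beside 15.8% higher and 16.3% lower over all tested genes in siErk3. Some counts lie near or below these shares, as for the 4 falls among 32 members of the atrophy and autophagy list. In the respiratory chain 1 gene passed. Of 30 glycolysis and glycogen genes 8 rose and 7 fell. Hexokinase Hk2 and the basal glucose transporter Slc2a1 rose by log2 fold changes of 1.74 and 1.68, while the muscle forms Pfkm, Eno3 and Pgam2 fell by 0.55, 0.47 and 0.69. Of 34 nuclear genes of the respiratory chain 1, Cox6a2, rose and none fell, and of 13 mitochondrially encoded genes none passed, with medians of -0.08 and 0.01. For 32 of the 34 and 9 of the 13 the interval of the difference from siNTC lay within 1.3-fold. Of 22 insulin signaling genes Trib3 rose and 7 fell, among them Irs1 (-0.91) and Igf1r (-0.58). In the atrophy and autophagy list 14 of 32 rose and 4 fell, with the autophagy receptor Sqstm1 at 2.55 and Foxo1 at -1.11. The atrophy ligases Fbxo32 and Trim63 had values of 0.02 and 0.37, short of the 1.3-fold limit, and did not pass. Klf15 went from 0.0845, 0.337 and 0.107 CPM to 6.53, 6.88 and 6.35 CPM. Of 17 clock genes 6 rose and 7 fell, with Ciart at 2.27 and Dbp at -1.85. Of 25 death and p53 genes 9 rose and 6 fell, with Gadd45a at 1.19 and Sesn1 at -0.96.

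**Figure D3:**
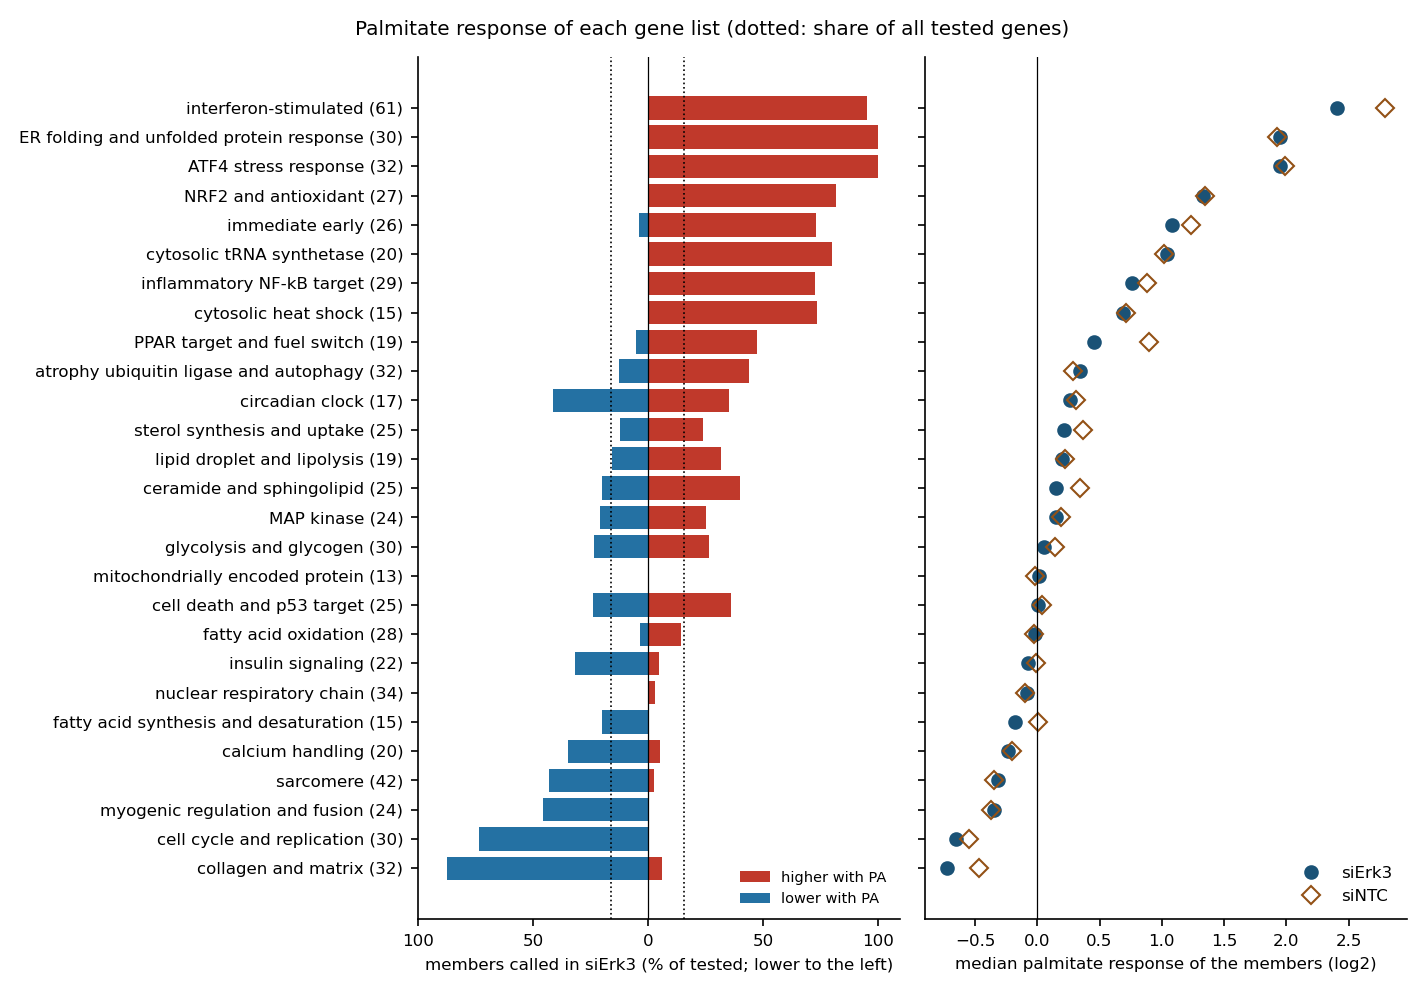
Left, share of tested members of each list that were higher (red, to the right) or lower (blue, to the left) with palmitate in siErk3, with dotted lines at the shares of all tested genes, 15.8% and 16.3%. Right, median log2 fold change of the members in siErk3 and siNTC. In siErk3 the medians run from 2.41 for interferon-stimulated genes to -0.73 for collagen and matrix. Some genes stand in more than 1 list.

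The difference of the responses, siErk3 minus siNTC, was then tested gene by gene to ask which parts of the palmitate response were weaker or stronger when Erk3 was low. By construction it equals the silencing effect with palmitate minus that in BSA. It passed for 8 genes of 21772, 2 with a positive difference (0.00919%) and 6 with a negative one (0.0276%). Of the 8, Usp18, Ifit1, Oas2, Oasl2 and Iigp1 rose by a lower fold in siErk3 than in siNTC. Each of these 5 gained more CPM in siErk3, as Oas2 did with 72.9 against 43.2 CPM. Gja5 fell less in siErk3, Ccn1 fell more, and Apol8 rose in siErk3 without passing in siNTC. F2r, the thrombin receptor, named after its values were seen, passed on FDR but not on fold (-0.32, edgeR FDR = 0.0407). At an unadjusted p below 0.05 there were 1329 genes, 4.18% of all tested genes with a negative and 1.92% with a positive difference. For 3106 of the 6992 genes changed in siErk3 (44.4%), the 95% interval of the difference lay within 1.3-fold either way.

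Ifit1, an antiviral protein that binds viral RNA, was at 13.2, 7.93 and 4.62 CPM in siErk3_BSA and 281, 284 and 255 CPM in siErk3_Palmitic, against 2.25, 2.54 and 1.84 CPM in siNTC_BSA and 242, 216 and 247 CPM in siNTC_Palmitic. The siErk3 levels were above those of siNTC in both media, by the larger ratio in BSA and by the larger number of CPM with palmitate. Its log2 fold change was thus 5.02 in siErk3 and 6.72 in siNTC, a difference of -1.70 (SE 0.31, 95% interval -2.34 to -1.07, edgeR FDR = 0.0407). Usp18, which removes Isg15 from proteins and dampens interferon signaling, was at 5.45, 3.67 and 2.83 CPM and 58.1, 61.1 and 59.5 CPM in siErk3, against 0.562, 1.17 and 0.520 CPM and 45.1, 38.5 and 50.9 CPM in siNTC. Its difference was -1.89 (SE 0.32, edgeR FDR = 0.0407). In both genes no library of 1 group overlapped those of another.

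Oas2, which senses double-stranded RNA, was at 19.6, 11.7 and 8.59 CPM in siErk3_BSA and 83.7, 87.5 and 87.2 CPM in siErk3_Palmitic, and its response differed by -1.73 (SE 0.33, edgeR FDR = 0.0443). Oasl2, its relative, went from 23.9, 17.5 and 14.4 CPM to 143, 159.6 and 166 CPM (difference -0.94, SE 0.18, edgeR FDR = 0.0493). Iigp1, a GTPase induced by interferon, went from 7.56, 6.11 and 4.22 CPM to 61.8, 73.2 and 76.8 CPM (difference -1.58, SE 0.31, edgeR FDR = 0.0493). In the 5 interferon genes the first siErk3_BSA library was the highest of its group. It also had the highest 18S share of the 3, 2.96% against 1.82% and 1.5%, whose part in the result was not tested beyond the fit with that share as a covariate, in which the Ifit1 difference was -1.81 (edgeR FDR = 0.0109).

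Ccn1, a matrix protein that binds integrins, was at 237, 233 and 224 CPM in siErk3_BSA and 152, 154 and 153 CPM in siErk3_Palmitic, against 212, 221 and 217 CPM and 184, 183 and 194 CPM in siNTC. Its log2 fold change was -0.60 in siErk3 and -0.21 in siNTC (difference -0.38, SE 0.07, edgeR FDR = 0.0407), just past the 1.3-fold limit. Gja5, the gap junction protein connexin 40, went from 93.0, 89.4 and 98.9 CPM to 47.1, 52.7 and 58.7 CPM in siErk3 and from 85.7, 87.4 and 89.2 CPM to 36.9, 31.6 and 30.1 CPM in siNTC (difference 0.58, SE 0.11, edgeR FDR = 0.0443). Apol8, of the apolipoprotein L family, went from 1.56, 1.14 and 1.75 CPM to 3.15, 2.79 and 3.18 CPM in siErk3, while it was at 3.51, 3.67 and 3.83 CPM and 3.10, 3.15 and 2.88 CPM in siNTC (difference 1.28, SE 0.25, edgeR FDR = 0.0443). The Apol8 groups with palmitate overlapped, and the siErk3_BSA group, on 27 to 49 counts per library, lay below the rest.

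**Figure D4:**
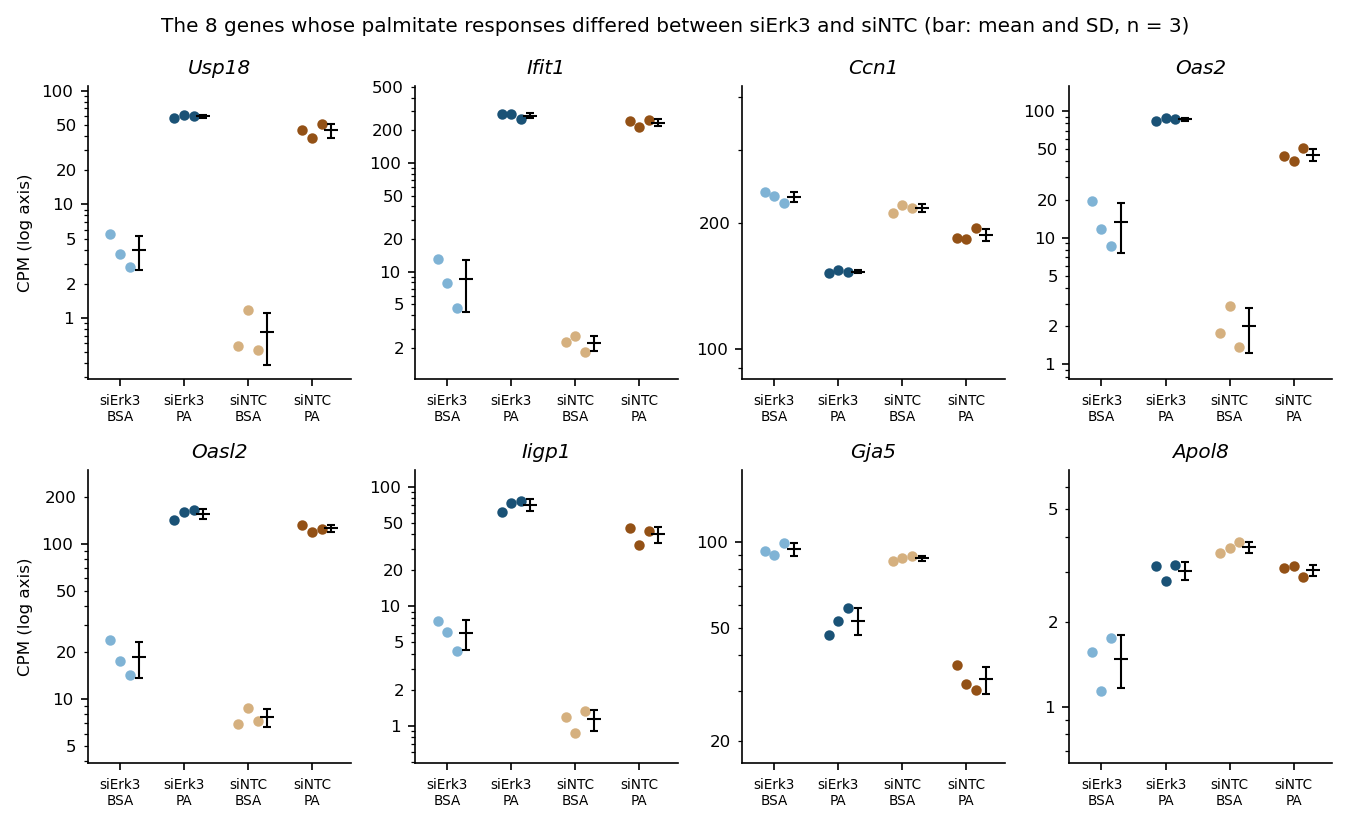
Level of the 8 genes with a difference between the responses in each library, in CPM on a log axis, with the mean and SD of 3 beside the points. In the 5 interferon genes the ratio of the siErk3 mean to the siNTC mean is larger in BSA than with palmitate. Their gap in CPM is larger with palmitate. For Ifit1 the levels are 4.62 to 13.2 against 1.84 to 2.54 CPM in BSA and 255 to 284 against 216 to 247 CPM with palmitate.

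These 8 calls were close to the threshold, with FDR between 0.0407 and 0.0493, and depended on the fit. With genes filtered by filterByExpr or by 10 counts in every library none passed, although the differences kept their sign where the gene was tested, and Ifit1 stayed at -1.68 under both. Usp18 was not tested under the second filter. Leaving out any single library of the siErk3_BSA or siNTC_BSA groups left 0 or 1 gene, except siErk3_BSA library 3, without which 13 passed.

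The interferon-stimulated list as a whole was strongly induced in silenced cells. Of 61 members 58 rose in siErk3 and 59 in siNTC, beside 15.8% and 15.5% of all tested genes, and none fell. The median log2 fold change was 2.41 in siErk3 and 2.79 in siNTC. Samhd1, Ifi27 and Epsti1 did not pass in siErk3. The difference was below 0 for 56 of 61 members, beside 55.9% of all tested genes. Of the 56, 41 had an unadjusted p below 0.05, beside 4.18% of all tested genes in that direction. The median difference was -0.47, beside -0.03 over all tested genes, and 5 members passed adjustment. The BSA level is a term of the difference, so a higher start in siErk3 lowers the difference by construction. In BSA the mean was higher in siErk3 than in siNTC for 59 of 61 members, beside 11978 of all 21772 tested genes. With palmitate it was higher for 60 of 61, beside 10696 of all tested genes. The median level over the members was 11.2, 7.97 and 5.90 CPM in siErk3_BSA against 3.44, 3.46 and 3.22 CPM in siNTC_BSA, and 61.5, 64.6 and 66.5 CPM against 52.7, 42.3 and 50.8 CPM with palmitate.

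On the linear scale the order was the other way. For 49 of 61 members the gain in mean CPM was larger in siErk3 than in siNTC, beside 10094 of all 21772 tested genes. Of the 49, 44 rose with the lower fold in siErk3, as did 663 of all tested genes. Ifit1 gained 265 CPM in siErk3 and 233 CPM in siNTC. Isg15, the ubiquitin-like modifier, went from 11.2, 8.10 and 5.33 CPM to 121, 125 and 124 CPM in siErk3 and from 2.81, 2.96 and 2.7 CPM to 99.6, 88.2 and 104 CPM in siNTC (difference -1.17, edgeR FDR = 0.108). The chemokine Cxcl10 went from 1.73, 1.81 and 1.18 CPM to 110.1, 107 and 93.9 CPM in siErk3 (log2 fold change 6.06, against 7.34 in siNTC, difference edgeR FDR = 0.539). Whether the response counts as weaker or larger therefore depends on the scale. The list was chosen with the silencing effects on these genes known, so its direction is not independent evidence. Members of the Oas, Ifit and Gbp families are near-identical in part, and reads could be split among them.

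The list's median difference was -0.33 without the first siErk3_BSA library, with 55 of 61 below 0 and 0 passing, and -0.74 with the 18S share as a covariate, with 22 passing. The direction was kept, and the size of the difference was set in part by that library. The letters GAAANNGAA, the core of the interferon-stimulated response element, were found in the 250 bases before the start for 22 of 46 members with a window (47.8%), and for 969 of 12771 tested genes (7.59%). The 4 members with the smallest p-values of the difference among the 22 are shown, with matches in capitals, reading towards the gene.
Ifit1 promoter, chr19:34640639-34640888, plus strand: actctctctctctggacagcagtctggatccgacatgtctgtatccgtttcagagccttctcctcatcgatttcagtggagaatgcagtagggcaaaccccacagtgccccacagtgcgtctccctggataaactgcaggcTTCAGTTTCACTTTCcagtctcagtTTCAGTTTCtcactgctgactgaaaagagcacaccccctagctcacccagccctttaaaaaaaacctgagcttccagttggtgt
Ifit3 promoter, chr19:34583279-34583528, plus strand: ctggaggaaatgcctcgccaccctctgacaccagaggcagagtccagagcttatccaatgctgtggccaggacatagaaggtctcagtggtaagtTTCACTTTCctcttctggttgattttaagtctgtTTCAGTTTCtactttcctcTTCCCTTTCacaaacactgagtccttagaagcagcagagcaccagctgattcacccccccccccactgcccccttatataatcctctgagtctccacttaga
Isg15 promoter, chr4:156200819-156201068, minus strand: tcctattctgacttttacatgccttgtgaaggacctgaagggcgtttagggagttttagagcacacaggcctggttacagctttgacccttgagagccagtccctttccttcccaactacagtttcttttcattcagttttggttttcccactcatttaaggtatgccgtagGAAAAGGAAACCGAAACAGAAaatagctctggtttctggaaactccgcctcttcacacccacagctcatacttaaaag
Ifit3b promoter, chr19:34607707-34607956, plus strand: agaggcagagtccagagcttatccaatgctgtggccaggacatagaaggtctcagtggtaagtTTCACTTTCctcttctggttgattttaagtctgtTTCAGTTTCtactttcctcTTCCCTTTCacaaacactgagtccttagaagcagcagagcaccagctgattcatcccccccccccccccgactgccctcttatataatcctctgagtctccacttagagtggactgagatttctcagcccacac
Each of the 4 holds 3 matches. All 3 overlap in turn in Isg15. In Ifit1 the matches at 109 and 103 bases overlap and that at 84 stands apart, and in Ifit3 and Ifit3b all stand apart, at the same spacing. The matches start between 66 and 187 bases before the gene. Searched the same way, the NF-kB letters GGGNNTTCC were found for 5 of 21 members of the NF-kB list (23.8%, against 7.12% of tested genes), the sterol element letters TCACNCCAC for 1 of 17 sterol members (5.88%, against 1.33%), TGACGTGG for none of 25 ER members (against 0.877%) and TGANTCA for none of 20 immediate early members (against 6.33%).

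Sterol synthesis and uptake genes, targets of Srebp2, had lower fold changes in silenced cells, though no single difference passed. In siErk3 6 of 25 rose and 3 fell, against 12 and 1 in siNTC, with medians of 0.21 and 0.37. Over all tested genes 15.8% rose and 16.3% fell in siErk3, against 15.5% and 15.1% in siNTC. The falls in this list lie below those shares. Insig1, which retains the Srebp complex in the ER, was at 93.1, 91.1 and 92.0 CPM in siErk3_BSA and 185, 202 and 207 CPM in siErk3_Palmitic, against 80.2, 84.6 and 83.2 CPM and 217, 224 and 206 CPM in siNTC (difference -0.28, 95% interval -0.41 to -0.14, edgeR FDR = 0.179). Idi1, the isomerase of isopentenyl diphosphate, had values of -0.18 and 0.20 (difference -0.38, edgeR FDR = 0.103). The difference was below 0 for 25 of 25 members, beside 55.9% of all tested genes. For 18 the unadjusted p was below 0.05, beside 4.18% of all tested genes in that direction, and none passed adjustment. The median was -0.22, with a range of -0.43 to -0.08. This list and those below were also chosen with earlier results of these data known, so their direction is not independent evidence. As for the interferon list, the mean in BSA was higher in siErk3 for 24 of 25 members. With palmitate it was higher for 1 of 25, and both means are terms of the difference.

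Fatty acid synthesis and desaturation genes also had lower fold changes, with no difference that passed. Of 15 measured members none rose and 3, Acacb, Srebf1 and Elovl6, fell in siErk3, beside 15.8% and 16.3% of all tested genes. All 15 differences were below 0 (median -0.20), beside 55.9% of all tested genes. For 10 the unadjusted p was below 0.05, beside 4.18% of all tested genes in that direction, and none passed adjustment. In BSA the mean was higher in siErk3 for 14 of 15 members and with palmitate for 3 of 15. Both means are terms of the difference. Fasn, which makes palmitate, was at 511, 506 and 526 CPM in BSA and 419, 433 and 440.2 CPM with palmitate in siErk3, and at 396, 464 and 476 CPM and 442, 448 and 437 CPM in siNTC. The siErk3 groups did not overlap and the siNTC groups did. The difference was -0.24 (95% interval -0.40 to -0.09, edgeR FDR = 0.490). Without the first siErk3_Palmitic library the medians of both lists were still below 0, at -0.17 for sterol and -0.14 for fatty acid genes, with 25 of 25 and 14 of 15 members below 0. Without the third, 1 sterol gene passed.

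Collagen and matrix genes had more negative fold changes in silenced cells. In siErk3 28 of 32 fell and 2, Timp1 among them, rose, against 23 and 2 in siNTC, with medians of -0.73 and -0.47. Over all tested genes 16.3% fell and 15.8% rose in siErk3, against 15.1% and 15.5% in siNTC. Col1a1 was at 1685, 1698 and 1655 CPM in siErk3_BSA and 476, 581 and 675 CPM in siErk3_Palmitic, and at 1366, 1586 and 1508 CPM and 725, 652 and 541 CPM in siNTC, with log2 fold changes of -1.54 and -1.22. Timp3, an inhibitor of matrix proteases, went from 667, 671 and 714 CPM to 155, 208 and 255 CPM (log2 fold change -1.73, SE 0.12, edgeR FDR = 1.26e-13). The palmitate libraries of the 2 silencings overlapped for both genes. All 32 differences were below 0, beside 55.9% of all tested genes, with a median of -0.21. For 20 the unadjusted p was below 0.05, beside 4.18% of all tested genes in that direction, and only the difference of Ccn1 passed adjustment. Without the first siErk3_Palmitic library the median was -0.16 and without the third -0.29, with 32 of 32 below 0 each time and none passing. In BSA the mean was higher in siErk3 for 30 of 32 members and with palmitate for 2 of 32, and both means are terms of the difference.

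Cell cycle genes fell in both responses, with 22 of 30 lower and none higher in siErk3 against 17 and 2 in siNTC (medians -0.66 and -0.55). Over all tested genes 16.3% fell and 15.8% rose in siErk3, against 15.1% and 15.5% in siNTC. Mki67, a marker of dividing cells, went from 427, 413 and 439 CPM to 153, 187 and 199 CPM (log2 fold change -1.25, SE 0.06, edgeR FDR = 1.16e-16). Birc5 and Tk1 had log2 fold changes of -1.46 and -1.44. The helicase subunits Mcm4, Mcm5 and Mcm6 fell by 0.65, 0.69 and 0.44 in siErk3, whereas Mcm2, Mcm3 and Mcm7 did not pass. The difference was below 0 for 26 of 30, beside 55.9% of all tested genes. For 10 of them the unadjusted p was below 0.05, beside 4.18% of all tested genes in that direction, and none passed adjustment. The median difference was -0.17, and it was -0.07 without the first siErk3_Palmitic library and -0.27 without the third. In BSA the mean was higher in siErk3 for 29 of 30 members and with palmitate for 16 of 30. Both means are terms of the difference. Markers of undifferentiated myoblasts, several of which are cell cycle genes, were at a summed 2214.5 to 2365 CPM in siErk3_BSA and 1593 to 1688 CPM in siErk3_Palmitic, and their part in the result was not tested.

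**Figure D5:**
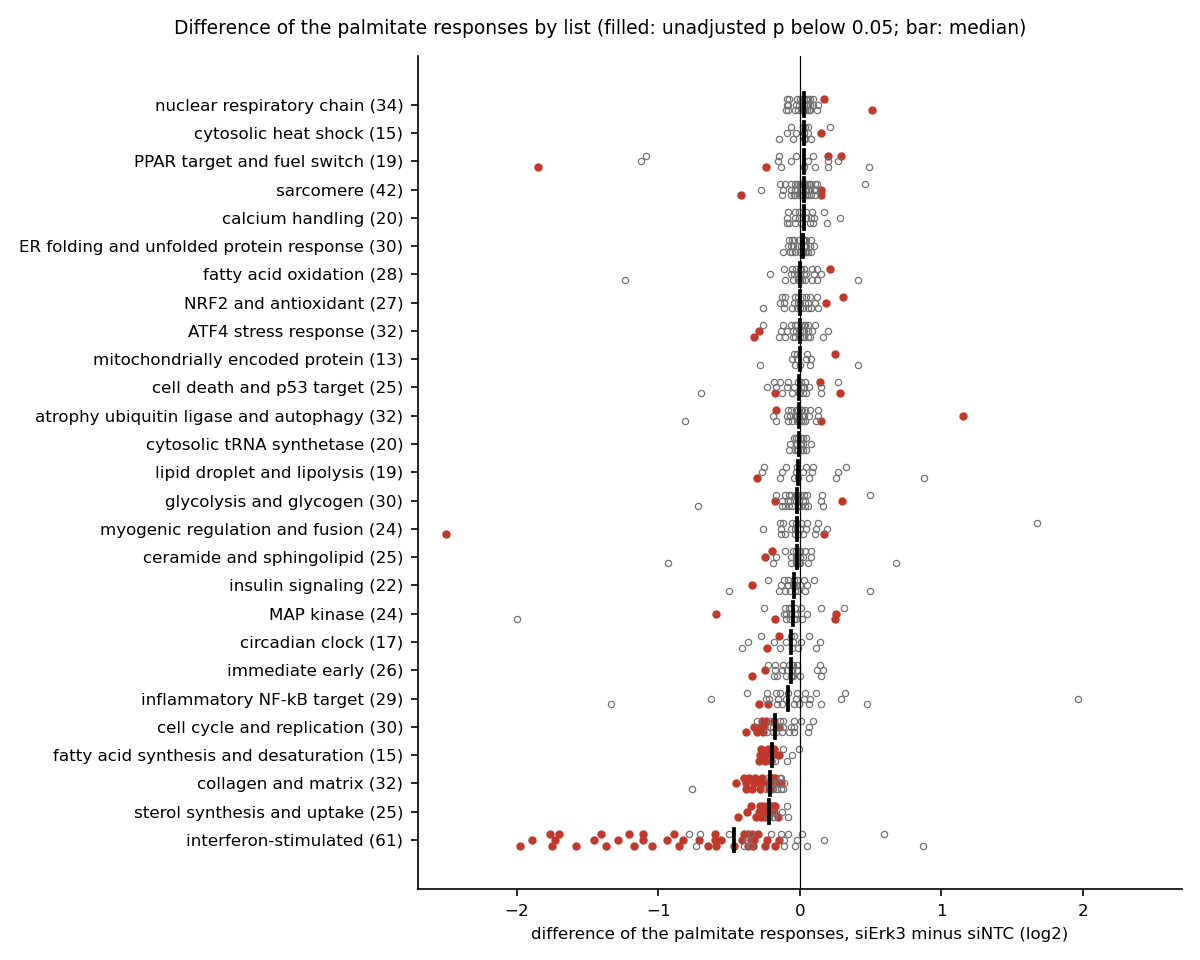
Difference of the palmitate responses, siErk3 minus siNTC in log2 units, for each tested member of each list. Filled points have an unadjusted p below 0.05, bars are medians, and 1 member beyond 2.7 is not drawn. Interferon-stimulated, sterol, collagen and fatty acid synthesis members lie to the left of 0 for the most part, while ATF4, ER folding and tRNA synthetase members gather at 0.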

How the data were processed

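Poly(A) RNA of C2C12 myotubes was sequenced in 18 stranded libraries, 6 groups of 3. Per the study's methods, the authors aligned reads with STAR to GRCm39 and counted pairs per gene on the stated strand with featureCounts (version 2.0.0 in the submitters' processing notes). Duplicates were marked, and no option in the file header leaves them out. Alignments were kept from a low mapping quality upwards, so genes with close copies may share reads. The labels name mm10, but the file header names an annotation of GRCm39, and the Mapk6 start in the table, 75276344, is that of GENCODE on GRCm39. The deposited counts were analysed here. A deposited log2 table was not used, and no column belonged to another sample.

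Genes with at least 10 counts over the 18 libraries were kept, 21772 in all, of which 21601 were named from GENCODE. Counts were normalized by TMM and fitted with edgeR's quasi-likelihood test (edgeR 4.0.16, limma 3.58.1, R 4.3.3) in 1 model with a coefficient per group. A gene was called at an FDR below 0.05, adjusted over all tested genes, and a change beyond 1.3-fold either way, criteria that follow the study. SE is the size of the log2 fold change divided by the square root of its F statistic, and 95% intervals use the degrees of freedom of the fit. Exact permutation tests and list medians were computed in Python 3.11.15. The procedure was tested on simulated counts.

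Genes were named by rule: Mapk6 and Mapkapk5, members of the lists, the 10 genes with the smallest FDR in each direction among those called in siErk3 without overlap between groups, and the same number for the difference of the responses. The members and lists were chosen with earlier results of these data known. Alternatives were DESeq2 size factors, DESeq2 1.42.0, other filters on low counts, only the groups compared, a replicate block, FDR alone and leaving out each library. The 18S share as a covariate and removal of the 18S gene were added after seeing the data. Samples were grouped by their titles. Depth was 13041979 to 28496727 counts per library, and for genes with few counts, such as Apol8, it limits precision. Promoters were 250 bases before the RefSeq start in GRCm38.p6, found for 12771 tested genes, and no coordinate was converted between builds. Values of some list members are not reported here.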

Additional observations from a re-analysis of the deposited data

Results flagged for a closer look

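The palmitate responses of siErk3 and siNTC differed for 8 genes by the test of the difference itself (edgeR, FDR below 0.05 and a fold above 1.3). The difference, siErk3 minus siNTC on the log2 scale, was -1.89 for Usp18, -1.70 for Ifit1, -1.73 for Oas2, -0.94 for Oasl2 and -1.58 for Iigp1, all interferon-stimulated. It was -0.38 for the matrix protein Ccn1, 0.58 for the connexin Gja5 and 1.28 for Apol8. Usp18 kept its call in 14 of 20 alternatives, Ifit1 and Gja5 in 10 of 21, Iigp1 in 9 of 21, Oas2, Oasl2 and Apol8 in 7 of 21 and Ccn1 in 4 of 21. The sign was the same in all alternatives run for these 8 genes.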

How the results depend on the processing

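The count of genes with a difference between the responses was the unstable result. It was 8 in the main analysis, 4 with DESeq2 size factors, 0 with filterByExpr, 0 with 10 counts required in every library, 72 with no filter, 29 with the 18S share as a covariate and 2 without the 18S gene, the last 2 settings chosen after seeing the data. Leaving out 1 library gave 0 to 24. It was 0 without siNTC_BSA library 1 or 3, siErk3_BSA library 1 or 2 or siErk3_Palmitic library 2, 1 without siNTC_BSA library 2, 2 without siNTC_Palmitic library 1 or 3 and 3 without library 2. It was 13 without siErk3_BSA library 3 and 24 without siErk3_Palmitic library 3. The cause was not tested. DESeq2, at the same FDR and fold limits as the main analysis, called 7. At an unadjusted p below 0.05, with no limit on fold, edgeR gave 1329 genes in the main analysis.

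The genes changed in siErk3 numbered 5531 to 7120 and those in siNTC 5359 to 6685 over the alternatives run, beside 6992 and 6661. On FDR alone they were 10265 and 9809. The Mapk6 response in siErk3 was 0.99 to 1.14 and its difference from siNTC 0.18 to 0.33. None of these values changed sign. Nor did the leading genes of the siErk3 response or the genes whose difference passed, the only other genes followed singly. List members with differences near 0 did change sign, since 10 to 24 of the 32 ATF4 members were below 0 at the ends of the range. The median difference of several lists with medians near 0 also changed sign, as for ATF4 (-0.06 to 0.05), PPAR (-0.03 to 0.11), NF-kB (-0.16 to 0.06) and immediate early genes (-0.22 to 0.02). So did the median siErk3 response of fatty acid oxidation genes (-0.05 to 0.01).

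Libraries of the same number in BSA and palmitate did not deviate together (r = -0.02, 0.09 and -0.06 in siErk3, 0.01, 0.09 and -0.03 in siNTC, over 10740 genes). With the number as a replicate block, 6932 genes changed in siErk3, 6599 in siNTC and 9 in the difference, and the Mapk6 values were 1.06 and 0.25.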
